A study of Mus musculus with 9 samples.

Results

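The 9 genes described here are mouse orthologs of genes that EWSR1-FLI1, the driver fusion of human Ewing sarcoma, is known to raise or to lower. They were taken from the count tables by gene symbol, and all 9 symbols were present among the 40213 symbols counted. Counts came from 9 RNA-seq libraries of mouse embryonic stem (ES) cells, 3 from each of 3 lines. The EWS-OCT4 line is labelled as a Niwa stable line carrying a fusion of EWS, the protein encoded by Ewsr1, with OCT4, the pluripotency factor encoded by Pou5f1, and it received doxycycline at 1 µg/ml to lower its endogenous OCT4. The OCT4 line is labelled as a Niwa stable line carrying unfused OCT4 and received the same dose. J1, an ES cell line, was the control, and whether it also received doxycycline is not said. All lines were grown with LIF, a cytokine that sustains ES cell self-renewal. Nothing in the labels gives the promoter driving either construct, the number of clones behind a line, or whether the numbered libraries were grown separately. The p-values therefore reflect library-to-library spread alone, possibly technical. Construct and host line change together in each comparison with J1.

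EWSR1-FLI1 joins the N-terminal part of EWS to the DNA-binding domain of the ETS factor FLI1. It binds GGAA sequences, raises many genes from repeats of that motif and lowers others. Sequences of EWS are shared with the EWS-OCT4 protein, whereas its DNA-binding part comes from OCT4, a POU factor that recognises octamer sequences. NR0B1, NKX2-2, BCL11B, PRKCB, CAV1, STEAP1 and GLI1 are raised by EWSR1-FLI1 in human cells, and IGFBP3 and LOX are lowered. One of them, Nr0b1, also has a role in mouse ES cells, where its protein binds OCT4 and restrains its activity.

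Library totals ran from 21149358 to 24786305 counts. Pou5f1, the gene targeted by the doxycycline treatment, stood at 26.8 ± 2.12 CPM (counts scaled to a common library size) in the EWS-OCT4 line, 165 ± 2.61 CPM in the OCT4 line and 569 ± 61.8 CPM in J1 (SD, n = 3 each), and reads of an introduced coding sequence may be included. The summed level of 10 ES cell markers ran from 3798 to 3909 CPM in EWS-OCT4 libraries, from 3491 to 3561 CPM in OCT4 libraries and from 4481 to 4821 CPM in J1 libraries, with no marker at 0 in any library. These markers went both ways (edgeR, adjusted p under 0.05). In the EWS-OCT4 line, 3 were higher and 2 lower than in the OCT4 line, and 2 higher and 5 lower than in J1. The OCT4 line had 2 higher and 6 lower than J1. Zfp42 averaged 758, 429 and 1425 CPM in the EWS-OCT4, OCT4 and J1 lines, whereas Tfcp2l1 averaged 660, 679 and 232 CPM. The summed level of 10 trophectoderm markers ran from 253.9 to 269.6 CPM in EWS-OCT4 libraries, from 557 to 599 CPM in OCT4 libraries and from 150 to 182 CPM in J1 libraries. Tfap2c, Krt8 and Krt18, at 103.5, 73.0 and 54.6 CPM, made up most of this sum in the EWS-OCT4 line. Cdx2 averaged 1.695, 7.96 and 0.0581 CPM in the EWS-OCT4, OCT4 and J1 lines, and Hand1 2.14, 78.2 and 1.78 CPM. All 10 were tested. In the EWS-OCT4 line, 1 was higher and 7 lower than in the OCT4 line, and 7 higher and 1 lower than in J1. The OCT4 line had 9 higher and 0 lower than J1. The summed level of 8 primitive endoderm markers ran from 35.6 to 38.8, from 317 to 353 and from 98.4 to 104.4 CPM in the same order of lines. Col4a1 made up most of this sum, at 25.6, 313 and 72.5 CPM. Of the 7 tested, 2 were higher and 3 lower in the OCT4 line relative to J1 by the same test. In the EWS-OCT4 line, 1 was higher and 4 lower than in the OCT4 line, and 1 higher and 6 lower than in J1. The part of these other markers in the members' differences was not tested, and in bulk RNA fewer cells of a type and less RNA per cell cannot be told apart.

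Of the 9 members, 7 had enough counts to be tested (edgeR's filter, minimum count 10), whereas Cav1 and Lox had at most 12 counts in any library. Nkx2-2 passed that filter only through its counts in the EWS-OCT4 line. In the EWS-OCT4 line relative to the OCT4 line, Nr0b1, Nkx2-2, Gli1, Steap1 and Igfbp3 were higher and Bcl11b and Prkcb were lower (edgeR quasi-likelihood test, Benjamini-Hochberg adjusted p under 0.05). This made 5 members higher, 2 lower and 2 untested, in a comparison in which 66.5% of the 16562 tested genes were called, 31.9% higher and 34.6% lower. Relative to J1, the EWS-OCT4 line had 4 members higher and 1 lower, where 61.9% of tested genes were called (30.3% higher, 31.6% lower), and the OCT4 line had 3 higher and 3 lower, where 67.0% were called (34.3% higher, 32.7% lower). A call was thus the usual outcome for a tested gene, and the counts alone say little of the members. The same shares stand beside the counts of the other gene lists, where some sparse genes also passed the filter through 1 line only. The 3 comparisons share libraries pairwise, so their values are given side by side.

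**Figure D1:**
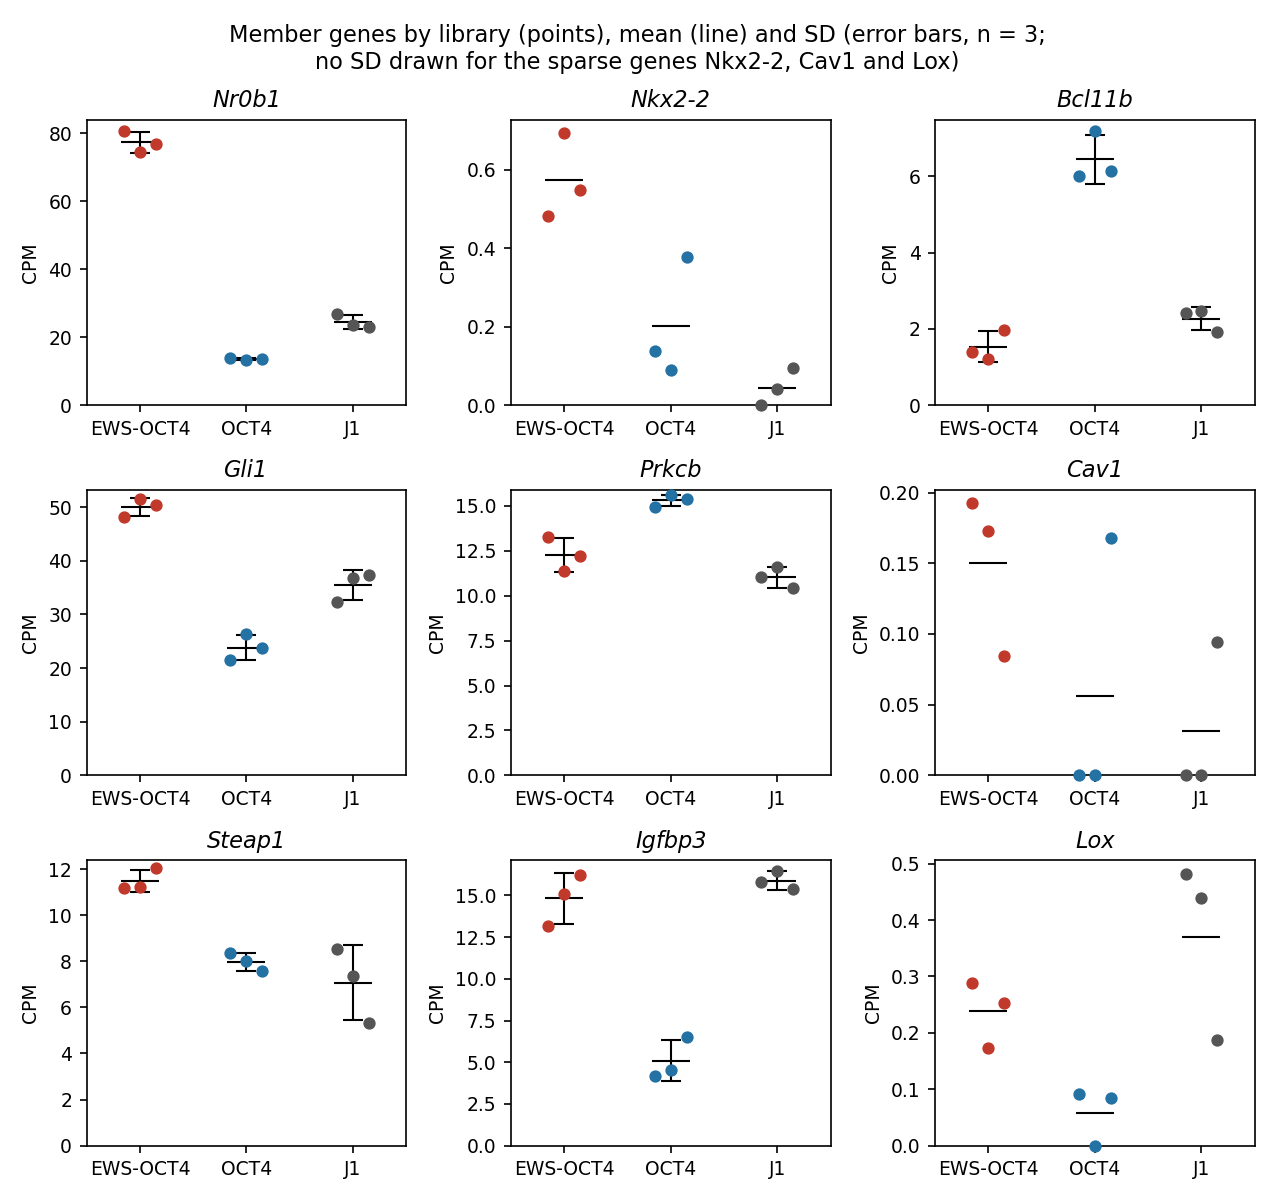
Level of each member gene in CPM (vertical axis, from 0) in the EWS-OCT4, OCT4 and J1 lines (horizontal axis), with 1 point per library, the mean as a line and the SD as error bars except for the 3 sparse genes. Nr0b1 averaged 77.3 CPM in the EWS-OCT4 line, against 13.5 CPM in the OCT4 line and 24.4 CPM in J1, and Bcl11b was highest in the OCT4 line.

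Nr0b1, which encodes the orphan nuclear receptor DAX1, had 80.6, 74.5 and 76.8 CPM in the EWS-OCT4 libraries, 13.8, 13.2 and 13.5 CPM in the OCT4 libraries and 26.7, 23.6 and 22.9 CPM in the J1 libraries. Every EWS-OCT4 library lay above every J1 library, and every J1 library above every OCT4 library. Nr0b1 was 5.73-fold higher in the EWS-OCT4 line than in the OCT4 line (log2 fold change 2.52, SE 0.0808, 95% interval 2.35 to 2.69, adjusted p = 5.46e-14 by edgeR's quasi-likelihood test). It was 3.16-fold higher than in J1 (log2 1.66, SE 0.0761, adjusted p = 8.3e-12). In the OCT4 line it fell by 0.86 on the log2 scale relative to J1 (SE 0.0829, adjusted p = 5.95e-08). The size of the change between the stable lines exceeded that of 95.7% of tested genes.

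Nr0b1 lies on chromosome X, and the X-linked genes as a group had the opposite sign to Nr0b1 in each comparison with the OCT4 line, and the same sign between the EWS-OCT4 line and J1. The median log2 fold change of 603 tested X-linked genes was -0.51 between the EWS-OCT4 and OCT4 lines, 0.14 between the EWS-OCT4 line and J1, and 0.63 between the OCT4 line and J1. Relative to these medians, Nr0b1 differed by 3.03, 1.52 and -1.49 on the log2 scale, larger in size than its own fold change in each comparison with the OCT4 line. The summed level of 4 Y-linked genes ran from 410.8 to 425.2 CPM in EWS-OCT4 libraries, from 116 to 121 CPM in OCT4 libraries and from 407 to 439 CPM in J1 libraries, and all 4 were higher in EWS-OCT4 than in OCT4 cells. The part of these sex-chromosome differences in the Nr0b1 values was not tested. Of its nearest tested protein-coding neighbours, Gk, the glycerol kinase gene, fell by 0.70 (adjusted p = 9.52e-05) and Mageb4 rose by 1.47 (adjusted p = 0.000244) in the EWS-OCT4 line relative to the OCT4 line.

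The OCT4-binding partners and regulators of Nr0b1 moved in both directions. Of 8 listed genes, 7 were tested, and in the EWS-OCT4 line relative to the OCT4 line 1 was higher, 3 were lower and 3 were not called, where the median log2 fold change was -0.08 against -0.04 over all tested genes. Pou5f1 fell by 2.62 (SE 0.0874) where Nr0b1 rose. Esrrb, an orphan nuclear receptor of the naive state that binds Nr0b1 protein, rose by 0.50 (SE 0.0643), at 459 ± 5.57 CPM in the EWS-OCT4 line and 324 ± 12.3 CPM in the OCT4 line (SD, n = 3 each). Nr5a2, a nuclear receptor known to activate Nr0b1, fell by 0.33 (SE 0.0697). Relative to J1, the EWS-OCT4 line had 1 of these genes higher and 3 lower, and the OCT4 line 3 higher and 3 lower. Nanog was the rise in the first of these, at 0.88 (SE 0.066), and rose by 0.96 (SE 0.066) in the second. The tallies include Nr0b2, called lower in the EWS-OCT4 line than in both other lines, and higher in the OCT4 line than in J1. Nr0b2 had 0, 1 and 0 counts in EWS-OCT4 libraries, 10, 12 and 12 in OCT4 libraries and 4, 6 and 0 in J1 libraries. It passed the filter only through the OCT4 line, so its calls favour that line.

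By distance between log2 CPM profiles centred on each gene's mean over the 9 libraries, the genes most like Nr0b1 among 10997 compared were Ngfr, Zhx1 and Perp, at distances of 0.415, 0.486 and 0.581. Ngfr, a neurotrophin receptor gene, averaged 82.2 CPM in the EWS-OCT4 line, 15.9 CPM in the OCT4 line and 31.2 CPM in J1. Perp, a p53 target encoding a membrane protein, averaged 41.6, 9.57 and 16.1 CPM in the same order of lines. Likeness over these libraries chose them, so their order of lines is no separate result.

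The 250 bases before the annotated transcription start were read from RefSeq (GRCm38.p6) for 7 of the 9 members, 8 windows in all, since Cav1 has 2 starts. The windows of Nr0b1, Igfbp3 and Bcl11b are shown because these genes had the largest changes between the stable lines among members with at least 5 CPM in 1 line. They are Nr0b1 (chrX:86191525-86191774, plus strand), Igfbp3 (chr11:7213924-7214173, minus strand) and Bcl11b (chr12:108003415-108003664, minus strand). Capitals mark GGAA or its reverse complement TTCC, the core that ETS factors recognise, and AGGTCA or TGACCT, a nuclear receptor half-site.
Nr0b1: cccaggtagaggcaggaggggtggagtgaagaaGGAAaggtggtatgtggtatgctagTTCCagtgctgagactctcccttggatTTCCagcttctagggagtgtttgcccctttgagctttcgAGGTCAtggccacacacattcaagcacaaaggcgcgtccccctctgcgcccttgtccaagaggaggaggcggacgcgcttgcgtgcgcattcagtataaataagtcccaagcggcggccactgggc
Igfbp3: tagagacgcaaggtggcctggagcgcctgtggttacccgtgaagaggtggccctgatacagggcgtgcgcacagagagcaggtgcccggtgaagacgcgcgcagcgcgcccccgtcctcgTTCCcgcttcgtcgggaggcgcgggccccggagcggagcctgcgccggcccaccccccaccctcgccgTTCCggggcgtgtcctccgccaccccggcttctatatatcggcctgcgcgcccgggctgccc
Bcl11b: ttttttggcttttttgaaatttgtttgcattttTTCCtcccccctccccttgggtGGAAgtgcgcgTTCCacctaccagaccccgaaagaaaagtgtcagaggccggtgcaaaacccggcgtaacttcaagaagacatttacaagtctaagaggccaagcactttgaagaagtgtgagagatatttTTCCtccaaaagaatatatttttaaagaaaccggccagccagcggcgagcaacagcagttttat
GGAA was present on either strand in 7 of the 8 member windows, and in 93.4% of all 32851 windows of the same length. The Nr0b1 window held 3 matches, that of Igfbp3 2 and that of Bcl11b 4, where the median over all windows was 3. The repeat GGAAGGAA, which contains 2 of these cores, was in 0 of the 8 member windows and in 3.12% of all windows. At so low a share, 0 of 8 is the likely outcome for any genes. Repeats farther from the start were not searched. The half-site AGGTCA was found in the window of Nr0b1 alone among members, with its first base 126 bases before the start, and in 14.0% of all windows, searched on both strands. These matches describe letters in the windows and do not show binding.

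**Figure D2:**
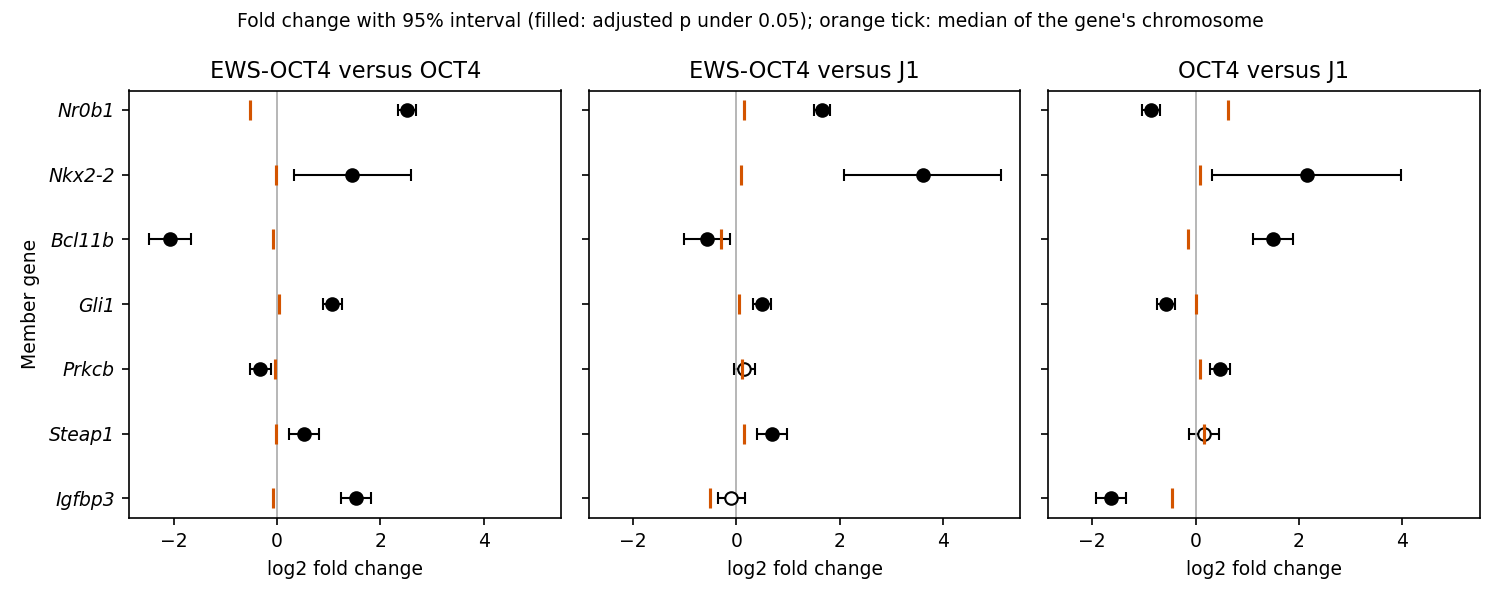
Log2 fold change (horizontal axis) of the 7 tested members (vertical axis) in each comparison, with 95% intervals, filled where adjusted p was under 0.05, and an orange tick at the median of the tested genes on the same chromosome. Nr0b1 lay 3.03 above the X-linked median between the EWS-OCT4 and OCT4 lines, and Igfbp3 had values of opposite sign in the outer panels.

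Among the other transcription factor genes, Gli1 had the order of lines seen for Nr0b1. Gli1, an effector and target of Hedgehog signalling, had 48.2, 51.5 and 50.4 CPM in EWS-OCT4 libraries, 21.5, 26.3 and 23.7 CPM in OCT4 libraries and 32.3, 36.8 and 37.3 CPM in J1 libraries. No library of a line overlapped another line's range. Gli1 was 2.10-fold higher in the EWS-OCT4 line than in the OCT4 line (log2 1.07, SE 0.0857, edgeR adjusted p = 6.45e-09) and 1.41-fold higher than in J1 (log2 0.50, SE 0.0833, adjusted p = 5.63e-05). In the OCT4 line it fell by 0.57 relative to J1 (SE 0.0865, adjusted p = 1.40e-05). Its annotated span overlaps Arhgap9, which fell by 0.77 in the EWS-OCT4 line relative to the OCT4 line, and reads shared by overlapping genes may be counted under either.

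Other genes of the Hedgehog pathway moved in both directions. Of 14 listed, 12 were tested, with 5 higher and 4 lower in EWS-OCT4 cells relative to the OCT4 line (median log2 fold change -0.04, as over all tested genes), 5 higher and 2 lower relative to J1, and 6 higher and 3 lower in the OCT4 line relative to J1. Kif7, a kinesin that regulates GLI proteins, rose by 0.89 (SE 0.113) in the EWS-OCT4 line relative to the OCT4 line. Ptch1, a receptor and a standard target of the pathway, stood at 108 ± 0.827 CPM in the EWS-OCT4 line, 95.7 ± 1.85 CPM in the OCT4 line and 62.5 ± 4.26 CPM in J1, so that both stable lines were higher than J1. Gli2, a pathway activator, rose by 0.83 (SE 0.0632) in the EWS-OCT4 line and by 0.69 (SE 0.0632) in the OCT4 line, each relative to J1. The ligand gene Shh was listed at 0 in both stable lines.

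Bcl11b, a zinc finger factor of T cell and neuronal development, went against its known direction under EWSR1-FLI1. It had 1.39, 1.21 and 1.98 CPM in EWS-OCT4 libraries, 6.002, 7.18 and 6.13 CPM in OCT4 libraries and 2.41, 2.47 and 1.93 CPM in J1 libraries. The OCT4 libraries were all above those of the other lines, whose ranges overlapped. Bcl11b fell by 2.07 on the log2 scale in the EWS-OCT4 line relative to the OCT4 line (SE 0.195, edgeR adjusted p = 5.14e-08), and was 2.82-fold higher in the OCT4 line than in J1 (log2 1.496, SE 0.183, adjusted p = 1.16e-06). Relative to J1, it fell by 0.57 in the EWS-OCT4 line (SE 0.214, adjusted p = 0.0279), where the median of chromosome 12 was -0.29. It missed the threshold when EWS-OCT4 replicate 1 (adjusted p = 0.0914) or 2 (0.141), or J1 replicate 1 (0.0622) or 2 (0.0763), was left out. The gene with the profile most like that of Bcl11b was Cdkn1a, a cell cycle inhibitor gene, with 25.1 ± 2.3 CPM in the EWS-OCT4 line, 110.5 ± 8.6 CPM in the OCT4 line and 40.5 ± 3.02 CPM in J1.

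Nkx2-2, a homeodomain factor of the ventral neural tube and pancreas that is a standard EWSR1-FLI1 target, was close to the detection limit in every line. It had 10, 16 and 13 counts in EWS-OCT4 libraries, 3, 2 and 9 counts in OCT4 libraries and 0, 1 and 2 counts in J1 libraries. These are 0.481, 0.693 and 0.548 CPM in EWS-OCT4 libraries, 0.139, 0.0904 and 0.378 CPM in OCT4 libraries, and 0, 0.0399 and 0.094 CPM in J1 libraries. The EWS-OCT4 libraries lay above all others, whereas those of the OCT4 line and J1 overlapped. The ratio of summed counts, scaled to depth, was 2.78 for the EWS-OCT4 line over the OCT4 line (exact 95% interval 1.48 to 5.55), 13.7 over J1 (4.35 to 69.2), and 4.92 for the OCT4 line over J1 (1.37 to 26.7), and such intervals cover counting error only. The edgeR test gave adjusted p = 0.0237, 0.000315 and 0.037 in this order. Because Nkx2-2 entered the test only through the line where it was high, these p-values favour that line. With no low-count filter they were 0.0353, 1.89e-05 and 0.043.

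The Nkx2-2 calls between the stable lines and between the OCT4 line and J1 rested on single libraries. The call between the stable lines, at 1.46 on the log2 scale, missed the threshold without EWS-OCT4 replicate 2 (adjusted p = 0.0823), OCT4 replicate 1 (0.0905) or OCT4 replicate 2 (0.109), and its log2 fold change was 2.28 without OCT4 replicate 3. That between the OCT4 line and J1, at 2.15, was lost without OCT4 replicate 3 (adjusted p = 0.266), J1 replicate 1 (0.127) or J1 replicate 2 (0.0774), and stood at 3.04 without J1 replicate 3. DESeq2 gave adjusted p = 0.0575 and 0.0557 for these. The call between the EWS-OCT4 line and J1, 3.61 on the log2 scale, ranged over the 16 alternatives that gave a value between 3.04 without J1 replicate 1 and 4.52 without J1 replicate 3. The annotated span of Nkx2-2 overlaps long noncoding RNA genes, so part of its few counts is uncertain.

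Of 7 other BCL11 and NK2 genes, 2 had enough counts to be tested, with 0 higher and 1 lower in EWS-OCT4 cells relative to the OCT4 line, 0 higher and 2 lower relative to J1, and 0 higher and 1 lower in the OCT4 line relative to J1. Among 9 neural progenitor markers, Dcx had 0 counts in every library and Olig2 had 6 counts over the EWS-OCT4 libraries, 8 counts over the OCT4 and 3 over the J1 libraries. The summed level of these markers ran from 96.8 to 98.0 CPM in EWS-OCT4 libraries, from 74.2 to 77.1 CPM in OCT4 libraries and from 73.3 to 103.7 CPM in J1 libraries. Within the list, Pax6, a neural and eye transcription factor, stood at 10.5 ± 0.414 CPM in the EWS-OCT4 line, 0.455 ± 0.136 CPM in the OCT4 line and 2.02 ± 0.197 CPM in J1. It rose by 4.50 (SE 0.203, edgeR adjusted p = 3.46e-12) in the EWS-OCT4 line relative to the OCT4 line and by 2.37 (SE 0.159, adjusted p = 1.02e-09) relative to J1. Of the 5 tested markers, 2 were higher and 1 lower in EWS-OCT4 cells relative to the OCT4 line, and 4 higher and 1 lower relative to J1. Their part in the Nkx2-2 and Bcl11b values was not tested.

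Among the genes of membrane and signalling proteins, Steap1 was highest in the EWS-OCT4 line and Prkcb in the OCT4 line, both by less than 2-fold. Steap1, a membrane protein of the metalloreductase family, had 11.2, 11.2 and 12.0 CPM in EWS-OCT4 libraries, 8.36, 7.996 and 7.56 CPM in OCT4 libraries and 8.52, 7.38 and 5.31 CPM in J1 libraries. The EWS-OCT4 libraries lay above all others, and the other lines overlapped. Steap1 was 1.44-fold higher in the EWS-OCT4 line than in the OCT4 line (log2 0.53, SE 0.137, edgeR adjusted p = 0.00256) and 1.62-fold higher than in J1 (log2 0.69, SE 0.138, adjusted p = 0.000307). The difference between the OCT4 line and J1 was 0.16 (95% interval -0.13 to 0.46, adjusted p = 0.316), and was -0.016 without J1 replicate 3. Its annotated span overlaps Gm46900, a predicted gene.

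The other STEAP genes, Steap2, Steap3 and Steap4, had other patterns. Steap3, an endosomal ferrireductase, stood at 14.3 ± 0.662 CPM in the EWS-OCT4 line, 91.9 ± 3.44 CPM in the OCT4 line and 23.1 ± 1.51 CPM in J1, a log2 fold change of -2.69 (SE 0.0786) between the stable lines. Steap2 was at 37.9 ± 0.953, 33.98 ± 2.27 and 17.7 ± 2.38 CPM in the same order of lines. In all, 1 of the 3 was higher and 1 lower in EWS-OCT4 cells relative to the OCT4 line, 1 higher and 1 lower relative to J1, and 2 higher and 1 lower in the OCT4 line relative to J1. Steap4, at 0.748 CPM in the EWS-OCT4 line, 0.133 CPM in the OCT4 line and 0.742 CPM in J1, was the higher one between the stable lines. It had only 9 counts over the OCT4 libraries. Among tested genes, Steap1 lies between Steap2 and Steap4, and Steap2 differed by 0.15 between the stable lines (edgeR adjusted p = 0.138).

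Prkcb encodes a classical protein kinase C activated by calcium and diacylglycerol. It had 13.3, 11.4 and 12.2 CPM in EWS-OCT4 libraries, 14.96, 15.6 and 15.4 CPM in OCT4 libraries and 11.0, 11.6 and 10.4 CPM in J1 libraries. The OCT4 libraries were above the rest, and the EWS-OCT4 and J1 libraries overlapped. Prkcb fell by 0.32 in the EWS-OCT4 line relative to the OCT4 line (SE 0.0943, edgeR adjusted p = 0.00666), a call lost without EWS-OCT4 replicate 2 (log2 -0.24, adjusted p = 0.0637). It was 1.39-fold higher in the OCT4 line than in J1 (log2 0.47, SE 0.0948, adjusted p = 0.000278), and the EWS-OCT4 line differed from J1 by 0.15 (95% interval -0.05 to 0.36, adjusted p = 0.179). Of 8 other protein kinase C genes, 7 were tested, with 0 higher and 3 lower in EWS-OCT4 cells relative to the OCT4 line, 1 higher and 4 lower relative to J1, and 4 higher and 1 lower in the OCT4 line relative to J1. Prkcz, an atypical form, stood at 15.5 ± 0.269 CPM in the EWS-OCT4 line, 31.3 ± 1.43 CPM in the OCT4 line and 18.9 ± 0.927 CPM in J1.

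The window before the Prkcb start, Prkcb (chr7:122288875-122289124, plus strand), is shown because it was the 1 member window with no GGAA core and the 1 with the octamer ATGCAAAT, the sequence POU factors recognise, here in capitals.
Prkcb: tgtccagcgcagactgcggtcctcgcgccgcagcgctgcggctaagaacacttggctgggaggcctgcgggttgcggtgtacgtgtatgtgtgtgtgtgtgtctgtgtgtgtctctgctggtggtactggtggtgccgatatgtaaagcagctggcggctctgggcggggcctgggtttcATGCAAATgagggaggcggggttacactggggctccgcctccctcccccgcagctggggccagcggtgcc
The first base of the octamer lies 70 bases before the start. On either strand the octamer was present in 1.6% of all windows. Its presence does not show that OCT4 or the fusion binds there.

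Cav1, which encodes the caveola coat protein caveolin-1, was near 0 throughout. It had 4, 4 and 2 counts in EWS-OCT4 libraries, 0, 0 and 4 counts in OCT4 libraries and 0, 0 and 2 counts in J1 libraries. The counts of the EWS-OCT4 and J1 lines overlapped, as did those of the stable lines. The ratio of summed counts was 2.5 for the EWS-OCT4 line over the OCT4 line (exact 95% interval 0.721 to 10.9), 5.27 over J1 (1.12 to 49.4, counting error only) and 2.11 for the OCT4 line over J1 (0.302 to 23.3). A count of 0 in a library allows up to 3 counts, which is 0.120 to 0.144 CPM at these depths. A Cav1 level below that could thus be missed in 1 library. With no low-count filter, edgeR gave adjusted p = 0.395, 0.169 and 0.642 in the same order.

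Some other caveola genes were measured at higher levels. Of 7 listed, 5 were tested, with 1 higher and 3 lower in EWS-OCT4 cells relative to the OCT4 line, 0 higher and 1 lower relative to J1, and 2 higher and 1 lower in the OCT4 line relative to J1. Cavin1, a caveola coat component, stood at 40.3 ± 3.04 CPM in the EWS-OCT4 line, 11.9 ± 0.939 CPM in the OCT4 line and 47.3 ± 11.7 CPM in J1. Cavin1 rose by 1.75 (log2, SE 0.161) in the EWS-OCT4 line relative to the OCT4 line and fell by 1.99 (SE 0.160) in the OCT4 line relative to J1. Among 6 endothelial markers, cells in which CAV1 is abundant, Emcn had 0 counts in every library, and the summed level ran from 136.9 to 145.7 CPM in EWS-OCT4 libraries, from 126.4 to 126.9 CPM in OCT4 libraries and from 147 to 154 CPM in J1 libraries. Pecam1 made up most of this sum, at 117, 75.7 and 127 CPM in the same order of lines. Tek followed at 20.96, 47.1 and 21.7 CPM, whereas Kdr, Cdh5 and Tie1 averaged at most 2.23 CPM in any line. The list went both ways: Pecam1 rose by 0.63 (SE 0.0614) and Tek fell by 1.17 (SE 0.0835) in the EWS-OCT4 line relative to the OCT4 line. Their part in the Cav1 counts was not tested.

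The genes for secreted proteins were lowest in the OCT4 line. Igfbp3, whose protein binds and holds insulin-like growth factors and which EWSR1-FLI1 lowers in human cells, had 13.2, 15.1 and 16.2 CPM in EWS-OCT4 libraries, 4.202, 4.56 and 6.51 CPM in OCT4 libraries and 15.8, 16.5 and 15.4 CPM in J1 libraries. The OCT4 libraries lay below all others, while the EWS-OCT4 and J1 ranges overlapped. Igfbp3 was 2.90-fold higher in the EWS-OCT4 line than in the OCT4 line (log2 1.54, SE 0.139, edgeR adjusted p = 2.95e-08). In the OCT4 line it fell by 1.63 relative to J1 (SE 0.138, adjusted p = 9.63e-09). The EWS-OCT4 line differed from J1 by -0.10 (95% interval -0.36 to 0.16, adjusted p = 0.511). The median of the 1324 tested genes of chromosome 11, where Igfbp3 lies, was -0.07 between the stable lines, and -0.51 and -0.46 for the EWS-OCT4 and OCT4 lines relative to J1.

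Igfbp3 rose between the stable lines where most tested genes of the insulin-like growth factor axis fell. Of 11 other genes of the axis, 9 were tested, and 0 were higher and 7 lower in EWS-OCT4 cells relative to the OCT4 line, where the median log2 fold change was -1.61 against -0.04 over all tested genes. Relative to J1, 2 were higher and 6 lower in EWS-OCT4 cells (median -0.78), and 3 higher and 2 lower in the OCT4 line (median 0.14). Igfbp2, another binding protein, stood at 109 ± 6.78 CPM in the EWS-OCT4 line, 622 ± 32.7 CPM in the OCT4 line and 296.5 ± 25.6 CPM in J1. The growth factor gene Igf2 stood at 93.9 ± 7.52, 532.5 ± 48.9 and 0.881 ± 0.37 CPM in the same order of lines. Igfbp4 fell by 1.25 (SE 0.129) and Igfbp7 by 1.61 (SE 0.198) in the EWS-OCT4 line relative to the OCT4 line.

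**Figure D3:**
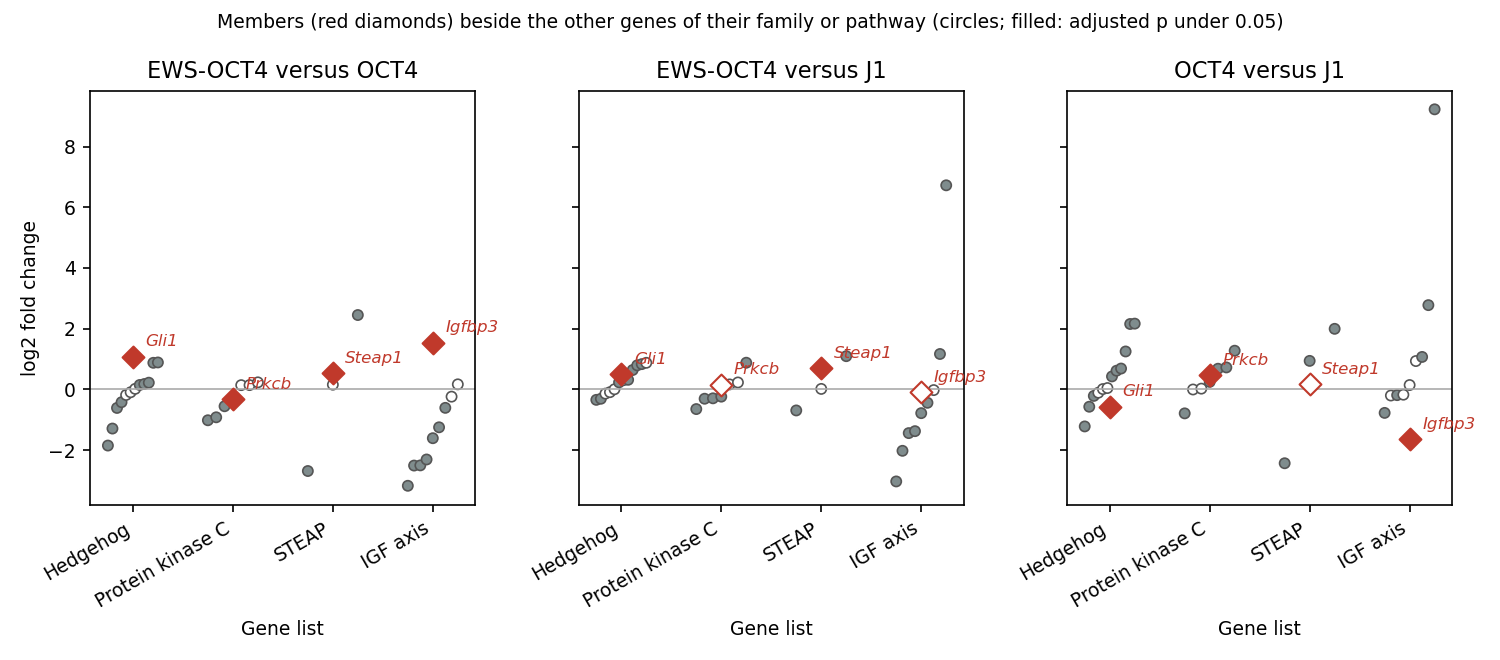
Log2 fold change (vertical axis) of Gli1, Prkcb, Steap1 and Igfbp3 (red diamonds) and of the other tested genes of their pathway or family (circles, by list on the horizontal axis) in each comparison, filled where adjusted p was under 0.05. In the left panel Igfbp3 stands at 1.54 and the 7 called genes of its list are all below 0.

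Lox encodes the copper enzyme lysyl oxidase, which cross-links collagen and elastin. It had 6, 4 and 6 counts in EWS-OCT4 libraries, 2, 0 and 2 counts in OCT4 libraries and 12, 11 and 4 counts in J1 libraries. The OCT4 libraries were below all others, and the EWS-OCT4 and J1 libraries overlapped. The ratio of summed counts was 4.0 for the EWS-OCT4 line over the OCT4 line (exact 95% interval 1.29 to 16.4), 0.624 over J1 (0.314 to 1.2) and 0.156 for the OCT4 line over J1 (0.0397 to 0.448), covering counting error only. With no low-count filter, edgeR gave adjusted p = 0.0583, 0.502 and 0.00431 in the same order. The first of these was 0.0424 without EWS-OCT4 replicate 2 and 0.0348 without J1 replicate 3, and up to 0.136 without OCT4 replicate 2, where the filter let Lox through.

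Of 10 lysyl oxidase relatives and matrix substrates, 9 were tested, with 1 higher and 4 lower in EWS-OCT4 cells relative to the OCT4 line, 1 higher and 3 lower relative to J1, and 3 higher and 2 lower in the OCT4 line relative to J1. Loxl2, a paralog, stood at 7.46 ± 0.275 CPM in the EWS-OCT4 line, 4.99 ± 1.09 CPM in the OCT4 line and 28.6 ± 1.08 CPM in J1. Col1a1, a collagen chain gene, stood at 2.81 ± 0.58, 5.91 ± 0.603 and 31.2 ± 3.19 CPM in the same order. The summed level of 14 fibroblast or feeder markers ran from 35.4 to 39.0 CPM in EWS-OCT4 libraries, from 64.5 to 70.5 CPM in OCT4 libraries and from 88.4 to 106.5 CPM in J1 libraries. Of their defining genes, Dcn had 0 counts in EWS-OCT4 libraries, 1 count in OCT4 libraries and 0 counts in J1 libraries, and Lum had 2, 0 and 0 in the same order. Others were expressed and differed: Thy1 stood at 21.1 ± 1.15 CPM in the EWS-OCT4 line, 28.6 ± 2.24 CPM in the OCT4 line and 44.9 ± 6.47 CPM in J1, and Pdgfrb at 5.62 ± 0.443, 24.4 ± 0.9 and 12.0 ± 1.04 CPM. Acta2, a smooth muscle actin, went against the sum, at 4.37 ± 0.561, 0.206 ± 0.0621 and 0.365 ± 0.256 CPM. Of the 7 tested markers, 1 was higher and 5 were lower in EWS-OCT4 cells relative to the OCT4 line, and 2 higher and 5 lower relative to J1. Their part in the Lox values was not tested.

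Per kilobase of the longest protein-coding transcript in GENCODE M21, Nr0b1 had the highest level of the 9 members in every line, at 42.8 ± 1.73 CPM per kilobase in EWS-OCT4 cells, 7.46 ± 0.158 CPM per kilobase in OCT4 cells and 13.5 ± 1.1 CPM per kilobase in J1 cells (SD, n = 3 each). Gli1 followed in EWS-OCT4 and J1 cells, at 12.3 ± 0.409 and 8.74 ± 0.678 CPM per kilobase. In the OCT4 line Steap1, Gli1 and Prkcb lay close together, at 6.48 ± 0.324, 5.88 ± 0.594 and 5.26 ± 0.11, and the library ranges of Gli1 overlapped those of both others. In J1 the ranges of Igfbp3, at 6.56 ± 0.232, and Steap1, at 5.75 ± 1.32, overlapped. Nkx2-2, Bcl11b, Cav1 and Lox were below 1 CPM per kilobase in all 3 lines.

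**Figure D4:**
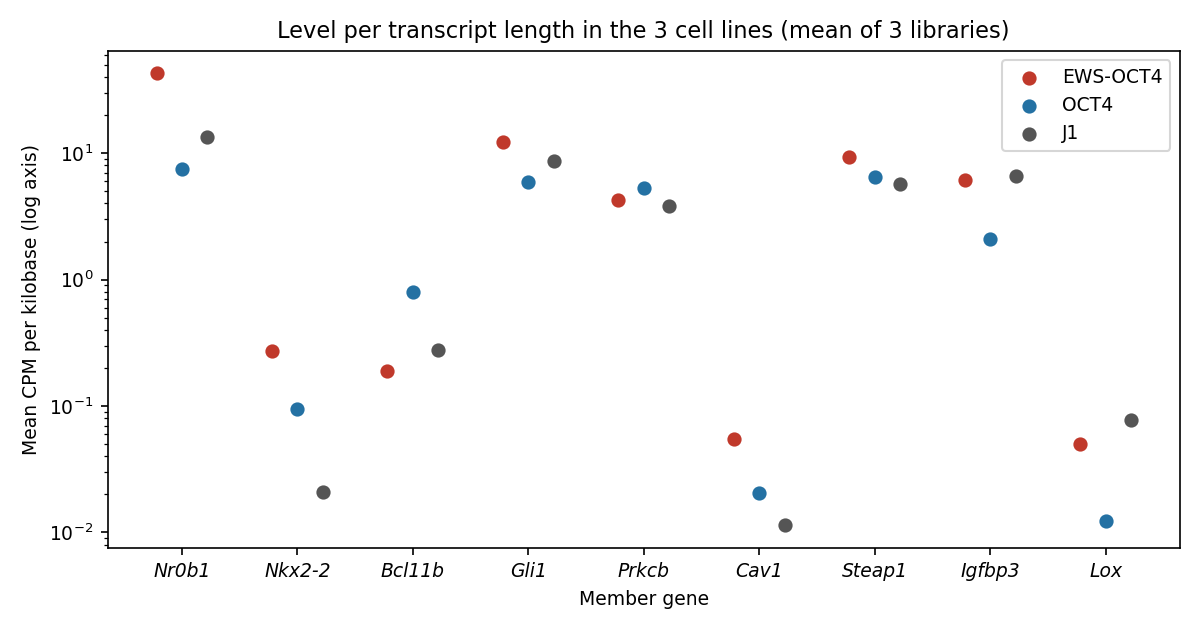
Mean level per kilobase of transcript (vertical axis, log scale) of each member (horizontal axis) in the EWS-OCT4, OCT4 and J1 lines, with 1 point per line. Nr0b1, at 42.8 CPM per kilobase in the EWS-OCT4 line, is the highest point, and Cav1 and Lox are among the lowest.

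Set against the directions known for EWSR1-FLI1 in human cells, the 7 orthologs of raised genes comprised 4 higher, 2 lower and 1 untested gene in the EWS-OCT4 line relative to the OCT4 line. Of all tested genes, 31.9% were higher and 34.6% lower in this comparison. Nkx2-2 is 1 of the 4 and was tested only because of its counts in the EWS-OCT4 line, so its place in the tally leans towards higher. The untested gene was Cav1, and the tally supports no direction. Relative to J1 the orthologs of raised genes comprised 4 higher, 1 lower, 1 not called and 1 untested in the EWS-OCT4 line, and 3 higher, 2 lower, 1 not called and 1 untested in the OCT4 line. Of the 2 orthologs of lowered genes, Igfbp3 was higher in the EWS-OCT4 line than in the OCT4 line and Lox was untested.

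Further orthologs of EWSR1-FLI1 targets, listed with earlier results of these data known, also went both ways. Of 23 orthologs of raised genes, 18 were tested, with 6 higher and 8 lower in EWS-OCT4 cells relative to the OCT4 line (median log2 fold change -0.12), 4 higher and 6 lower relative to J1 (median -0.08), and 7 higher and 6 lower in the OCT4 line relative to J1 (median -0.02). In these 3 comparisons, 31.9%, 30.3% and 34.3% of all tested genes were higher, and 34.6%, 31.6% and 32.7% were lower. Myc, a growth-promoting transcription factor, stood at 45.1 ± 0.178 CPM in the EWS-OCT4 line, 6.55 ± 0.992 CPM in the OCT4 line and 18.1 ± 1.11 CPM in J1, the same order of lines as Nr0b1 and Gli1. Id2, an inhibitor of helix-loop-helix factors, stood at 22.6 ± 2.34, 9.37 ± 0.36 and 12.5 ± 2.17 CPM. Hspb8, a small heat shock protein, stood at 10.8 ± 1.64, 72.6 ± 4.3 and 13.3 ± 0.983 CPM, with the OCT4 line highest. Upp1 stood at 93.85 ± 2.01, 143 ± 4.07 and 167 ± 7.74 CPM, with the EWS-OCT4 line lowest. Of 7 orthologs of lowered genes, all tested, 2 were higher and 3 lower in EWS-OCT4 cells relative to the OCT4 line, 3 higher and 3 lower relative to J1, and 4 higher and 0 lower in the OCT4 line relative to J1. Cdkn1a fell by 2.14 (SE 0.086) in the EWS-OCT4 line relative to the OCT4 line, while Tgfbr2, a TGF-beta receptor, rose by 0.69 (SE 0.185). Cdkn1c stood at 31.1 ± 0.997 CPM in the EWS-OCT4 line, 20.4 ± 1.09 CPM in the OCT4 line and 3.88 ± 0.498 CPM in J1.

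The mouse genes that form such fusions in human tumours were measured too. Ewsr1 stood at 531.5 ± 31.4 CPM in the EWS-OCT4 line, 469 ± 45.5 CPM in the OCT4 line and 560 ± 73.7 CPM in J1. Reads of the introduced EWS sequence may be included in the EWS-OCT4 value. Fli1 had 1 count over the EWS-OCT4 libraries, 5 counts over the OCT4 and 4 over the J1 libraries. Of 8 FET and ETS genes, 6 were tested, with 4 higher and 1 lower in EWS-OCT4 cells relative to the OCT4 line, 2 higher and 1 lower relative to J1, and 1 higher and 3 lower in the OCT4 line relative to J1. Etv1, an ETS factor that also recognises GGAA, stood at 75.5 ± 4.01 CPM in the EWS-OCT4 line, 41.55 ± 0.679 CPM in the OCT4 line and 12.7 ± 0.448 CPM in J1. Erg, another ETS factor, fell by 0.92 in the EWS-OCT4 line relative to the OCT4 line (adjusted p = 0.00762), with 58, 110 and 123 counts summed over the EWS-OCT4, OCT4 and J1 libraries.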

How the data were processed

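Total RNA libraries were made with the CORALL RNA-seq V2 kit, per the labels' protocols. Each library has 1 deposited table of raw counts by gene symbol. Per the submitters' processing notes, fastp, STAR, Salmon, GATK and GRCm39 were used, with no versions or roles. Annotation, strand setting and handling of molecular identifiers were not given in the sources used here, so overlapping genes are uncertain.

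A single edgeR 4.0.16 model (R 4.3.3) held the 9 libraries in 3 groups: filterByExpr (minimum count 10, minimum total 15), TMM scaling, robust glmQLFit and glmQLFTest, Benjamini-Hochberg adjustment over 16562 genes at 0.05. Tested genes held 99.9% of the counts of each library. CPM use TMM-scaled library sizes; ± is the SD of 3 libraries; SE was derived as |log2 fold change| over root F; 95% intervals of fold changes use edgeR's total degrees of freedom. Replicates differed by more than sampling noise (chi-square per degree of freedom 3.36 to 32.0). Sparse members have exact conditional binomial intervals.

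Members, lists and naming rules were chosen with earlier results of these data known. The rule named all 9 members, then per list and comparison up to 4 called genes by size with at least 5 CPM in 1 line, plus Pou5f1, Ewsr1, Fli1, Erg and markers near 0. Shh, Steap4, Nr0b2, Acta2, Arhgap9 and the neighbouring genes were named after their values were seen. Chromosomes, neighbours and overlaps came from RefSeq GRCm38.p6 by symbol (16059 of 16562 matched), another build than the counts, so only the promoter windows carry coordinates, in GRCm38.p6. The tests were checked on simulated counts. The alternatives, including DESeq2 1.42.0 and limma 3.58.1 (voom), are given in the closing section.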

Additional observations from a re-analysis of the deposited data

How the results depend on the processing

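Each result was recomputed under 17 alternatives: upper-quartile or RLE scaling, no low-count filter, at least 5 CPM in 3 libraries, DESeq2, limma-voom, only the 6 libraries compared, the replicate block, and each of the 9 libraries left out. Of 353 recomputed fold changes of single members, 339 kept direction and side of the threshold, 13 lost the call (Nkx2-2, Bcl11b and Prkcb, as given above) and 1 changed sign, Steap1 in the OCT4 line relative to J1 (-0.016 without J1 replicate 3 to 0.31 without J1 replicate 1). With 1 library left out, members lower in the EWS-OCT4 line numbered 0 to 1 relative to J1 and 1 to 2 relative to the OCT4 line. With any alternative, members higher numbered 4 to 6 between the stable lines, 3 to 4 for the EWS-OCT4 line relative to J1 and 2 to 3 for the OCT4 line relative to J1, where 3 to 4 were lower. The replicate block gave 5419 genes higher and 5827 lower between the stable lines, against 5282 and 5730 without it, and changed no member's call. Same-numbered deviations correlated at most at 0.0737, with 0 of 9 pairs over 0.1. Yet 13 of 18 best matches, each among 3 libraries, had the same number, so a weak pairing by number remains possible. Depth limits Cav1, Lox and Nkx2-2.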

Other observations

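The nearest tested genes on both sides of Cav1, Bcl11b and Igfbp3 are given relative to J1, and these 3 members were picked after the values of all neighbours were seen. Beside Cav1, its paralog Cav2 had 27 counts over the EWS-OCT4 libraries, 50 over the OCT4 libraries and 22 over the J1 libraries, and was higher in the OCT4 line by 1.25 (log2, edgeR adjusted p = 0.0089). Cav2 passed the count filter only through its counts in the OCT4 line, so this p-value favours that line. Met, on the other side, fell by 1.87 in the EWS-OCT4 line and by 1.97 in the OCT4 line (adjusted p = 3.61e-09 and 9.77e-10). Beside Bcl11b, Vrk1 was higher by 1.15 in the EWS-OCT4 line and by 0.81 in the OCT4 line (adjusted p = 7.71e-11 and 3.21e-09), and Setd3 by 1.05 and 1.37 (adjusted p = 6.02e-09 and 9.89e-11), where the median of chromosome 12 was -0.29 and -0.15. Beside Igfbp3, which differed by -0.10 and -1.63, Adcy1 differed by -0.23 and -0.86 (adjusted p = 0.0204 and 8.29e-08) and Tns3 by 0.75 and 0.30 (adjusted p = 3.33e-08 and 0.000753).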
